A study of Mus musculus with 9 samples.

Results

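The 30 genes described here make, sense, carry, store and export cholesterol, and they were measured by RNA sequencing in mouse kidney cortex after a fast. They were chosen by symbol from a list of the cholesterol pathway, and they are 30 of the 23420 genes of the deposited table. All 30 were found, Msmo1 under its older name Sc4mol. All 30 averaged 10 normalized counts or more and so were among the 15098 genes tested. They fall into 19 enzymes of synthesis, 5 genes of sterol sensing and carriage, and 6 genes of efflux, storage and lysosomal export. The fasted group was 4 male C57/BL6 mice without food for 16 h, and the fed group was 5 male C57/BL6 mice that ate freely. Chow and a light and dark cycle of 12 h each were common to the 2 groups, and the labels give no age, genetic change or time of day at collection. Each library came from a piece of cortex of about 50 mg from 1 mouse, and mice are numbered Fasted 1 to 4 and Fed 1 to 5 in the order of their records, which pairs nothing.

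Cells build cholesterol from acetyl-CoA through mevalonate, the isoprenoid diphosphates, squalene and lanosterol, mostly in the endoplasmic reticulum. When sterols in that membrane run low, SCAP escorts the transcription factor SREBP-2 to the Golgi, where it is cut and freed to switch on the enzymes. When sterols are plentiful, the INSIG proteins hold SCAP back. The liver X receptors (LXR) answer the sterol derivatives that accumulate with surplus cholesterol and switch on exporters such as Abca1 and Abcg1, while the NPC proteins pass cholesterol out of the lysosome. The kidney cortex is mostly proximal tubule, an epithelium that recovers filtered solutes and takes up many proteins from the filtrate.

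Promoter windows of 300 bases, from 250 before to 50 after the annotated start, are shown for a small set of genes that the results turn on. They are an enzyme at the entry of the pathway (Hmgcs1), 2 enzymes with lower levels after the fast (Mvk and Idi1), the paralogous SCAP anchors (Insig1 and Insig2) and an exporter (Abca1). The sequences are RefSeq's, on GRCm38.p6, written 5′ to 3′ on the strand of the gene. Capitals mark matches, on either strand, to the letters TCACNCCAC, a strict form of the sterol response element, and to CCAAT, the box bound by NF-Y (ATTGG where it lies on the other strand).
Hmgcs1, chr13:119690101-119690400, plus strand: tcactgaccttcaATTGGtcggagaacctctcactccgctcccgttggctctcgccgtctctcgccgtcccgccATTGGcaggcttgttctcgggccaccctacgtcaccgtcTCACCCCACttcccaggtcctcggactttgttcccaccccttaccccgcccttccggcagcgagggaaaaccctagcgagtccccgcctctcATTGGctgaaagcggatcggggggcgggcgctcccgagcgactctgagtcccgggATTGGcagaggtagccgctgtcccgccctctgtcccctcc
Mvk, chr5:114444019-114444318, plus strand: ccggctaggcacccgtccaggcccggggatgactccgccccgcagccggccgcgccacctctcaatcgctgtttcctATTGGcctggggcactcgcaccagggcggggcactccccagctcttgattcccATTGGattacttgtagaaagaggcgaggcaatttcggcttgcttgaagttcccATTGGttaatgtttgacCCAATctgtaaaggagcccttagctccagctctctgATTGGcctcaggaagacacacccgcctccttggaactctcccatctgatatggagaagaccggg
Idi1, chr13:8885356-8885655, plus strand: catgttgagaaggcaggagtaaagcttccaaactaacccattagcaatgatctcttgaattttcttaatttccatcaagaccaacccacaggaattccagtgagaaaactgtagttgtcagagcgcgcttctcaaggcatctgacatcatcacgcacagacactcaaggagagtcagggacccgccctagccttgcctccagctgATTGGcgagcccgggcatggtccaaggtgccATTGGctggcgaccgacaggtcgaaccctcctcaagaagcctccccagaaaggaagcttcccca
Insig1, chr5:28071162-28071461, plus strand: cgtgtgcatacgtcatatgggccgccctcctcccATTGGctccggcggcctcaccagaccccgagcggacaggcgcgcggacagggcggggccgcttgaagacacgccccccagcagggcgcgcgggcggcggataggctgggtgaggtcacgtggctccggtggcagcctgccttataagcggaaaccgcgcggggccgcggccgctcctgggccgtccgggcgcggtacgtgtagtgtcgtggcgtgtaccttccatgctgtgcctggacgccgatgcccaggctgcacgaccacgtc
Insig2, chr1:121332540-121332839, minus strand: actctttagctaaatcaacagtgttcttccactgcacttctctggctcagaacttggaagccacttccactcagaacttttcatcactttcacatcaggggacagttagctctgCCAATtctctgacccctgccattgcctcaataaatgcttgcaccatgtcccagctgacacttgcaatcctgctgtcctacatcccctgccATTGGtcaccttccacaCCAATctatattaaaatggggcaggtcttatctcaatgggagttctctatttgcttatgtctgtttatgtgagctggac
Abca1, chr4:53159846-53160145, minus strand: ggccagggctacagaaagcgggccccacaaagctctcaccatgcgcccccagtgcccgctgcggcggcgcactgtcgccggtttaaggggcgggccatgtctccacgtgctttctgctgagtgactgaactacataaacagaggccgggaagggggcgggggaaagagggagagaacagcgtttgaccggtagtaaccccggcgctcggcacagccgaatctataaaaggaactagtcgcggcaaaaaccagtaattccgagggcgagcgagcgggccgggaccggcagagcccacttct
The Insig2 window is the most upstream of its 3. The Mvk window holds 5 CCAAT boxes, the Hmgcs1 window holds 4 and the Idi1 window holds 2, against none in the Abca1 window. The only match to the strict sterol response element among the cholesterol genes lies in Hmgcs1, as TCACCCCAC starting at position -137 from the start. Windows were at hand for 24 of the 30 genes, and 21 of these genes hold CCAAT and 22 hold the letters GGGCGG, the core of an Sp1 site, on either strand. Over the 27025 genes of the same table, 41.1% hold CCAAT, 38.2% hold GGGCGG and 1.44% hold TCACNCCAC in a window of this length. By group, CCAAT was present in 15 of 16 synthesis genes, 3 of 4 sensing genes and 3 of 4 efflux genes with a window. Matches of different motifs that shared letters were each counted, and a match describes the letters of the window, not a bound site.

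Depth, as whole reads worked back from the normalized values, was 18902645 to 27186745 reads in fasted libraries and 19638174 to 32469467 in fed libraries. Defining markers of the proximal tubule, thick ascending limb, distal tubule, collecting duct and podocyte were present in every mouse. The 7 proximal tubule markers summed to between 384775 and 444920 normalized counts in fasted mice and between 445681 and 618963 in fed mice, with Fed 5 at the low end of the fed range, and 1 of the 7, Slc34a1, was lower in fasted mice. The 5 adipocyte markers summed to between 777 and 1109.7 in fasted mice and between 516 and 772 in fed mice, with Fed 5 highest among the fed; 2 of the 5, Plin1 and Fabp4, were higher in fasted mice, and Adipoq and Lep were near 0. Of the 5 adrenal cortex markers, Cyp11b1, Cyp11b2, Cyp21a1 and Mc2r were near 0 in every mouse. The 5 summed to between 226 and 285 normalized counts in fasted mice. In fed mice the sum was between 176 and 207 in Fed 1 to 4 and 309 in Fed 5, the highest of all mice. The 1 adrenal cortex marker tested was not called, and its part in these results was not tested. The macrophage markers summed to 1740.5 to 2711 in fasted mice and 1993 to 2786 in fed mice, and the endothelial markers to 7531 to 8056 in fasted mice and 7391 to 8332 in fed mice. Of the 4 endothelial markers, Pecam1 was called higher and Kdr lower in fasted mice, and of the 3 distal tubule markers Trpm6 was called higher. Rn45s, a ribosomal RNA entry, took 2.36% of the counts in Fasted 1 and 5.53% in Fed 3, and 0.513% to 1.38% in the rest. For the synthesis genes Fed 5 stood apart from the other fed mice, so counts that rest on it are given with and without it. Its group comes from its label alone, which was kept; nothing in the files checks independently that it had fed like the others, and values with and without it are to be read with that doubt.

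In the fasted kidneys, limma called 12 of the 30 cholesterol genes lower, and none was called higher by limma, edgeR or DESeq2. DESeq2 called the same 12 lower and also Acat2 and Sc5d. At an unadjusted p under 0.05 in limma the only one higher was Ggps1. The 12 were 10 of the 19 synthesis enzymes together with Srebf2, which encodes SREBP-2, and Stard4, a soluble sterol carrier. The 6 genes of efflux, storage and lysosomal export had log2 changes between -0.11 and 0.13, and none of them passed. A gene was called changed at a Benjamini-Hochberg adjusted p under 0.05 in limma on log2(value + 1), and log2 changes are fasted over fed on that scale, with their standard error (SE). Means are in normalized counts, ± SD over 4 fasted and 5 fed mice. Of all tested genes, 5.25% were called lower, 5.72% higher and 11% in either direction, so the 10 of 19 synthesis enzymes called lower stand beside a background of 5.25%. The median log2 change was -0.55 over the synthesis enzymes, -0.60 over the sensing and carriage genes and 0.01 over the efflux group, beside 0.00089 over all tested genes. In bulk cortex, fewer cells of a type and less RNA per cell cannot be told apart. The proximal tubule and adipocyte marker sums moved with the fast as given above, and their part in these results was not tested.

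**Figure D1:**
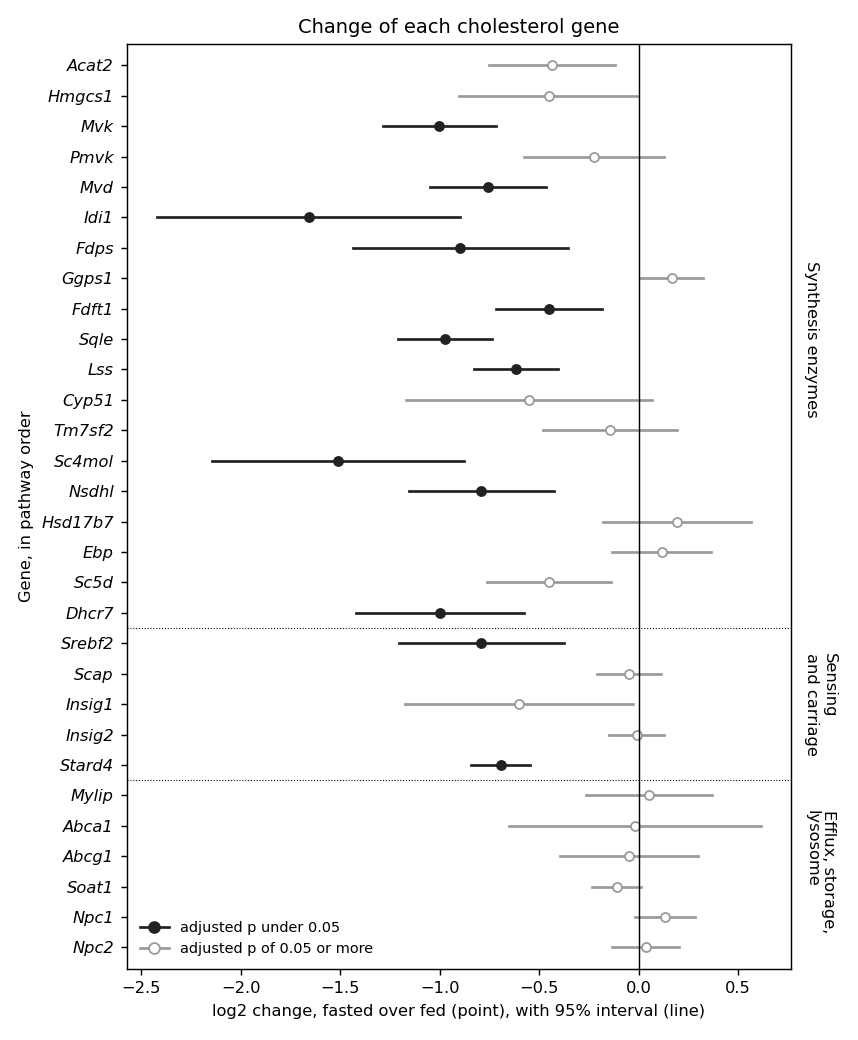
Log2 change of each cholesterol gene, fasted over fed, on the log2(normalized count + 1) scale (points), with its 95% interval (lines), in the order of the pathway. Filled points are the 12 genes with an adjusted p under 0.05; all lie left of 0, and the 6 efflux, storage and lysosomal genes at the bottom lie between -0.11 and 0.13.

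Fasted and fed mice did not overlap at all for 9 of the 30 genes, each of them lower in every fasted mouse than in every fed mouse. Over all tested genes 6.64% separated in that direction and 7.62% in the other, in which none of the cholesterol genes did. Without Fed 5 the number separating downward was 15 of 30, beside 10.4% of all tested genes. Without Fed 5, 13 of the 19 synthesis enzymes were called lower, beside 6.84% of all genes tested in that fit. With the fed group reduced to Fed 1, Fed 2 and Fed 3, the number was also 13 of 19 (background 6.03%). That fit leaves out Fed 5 as well, so its count is not separate from the one before. With only Fed 4 and Fed 5 the number was 3 of 19 (background 0.728%). Without Fasted 1 and Fed 3, the libraries highest in Rn45s, 6 of 19 were called lower (background 3.22%); Idi1 (limma adjusted p = 0.0649), Nsdhl (0.0672), Fdps (0.144) and Fdft1 (0.137) were not.

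**Figure D2:**
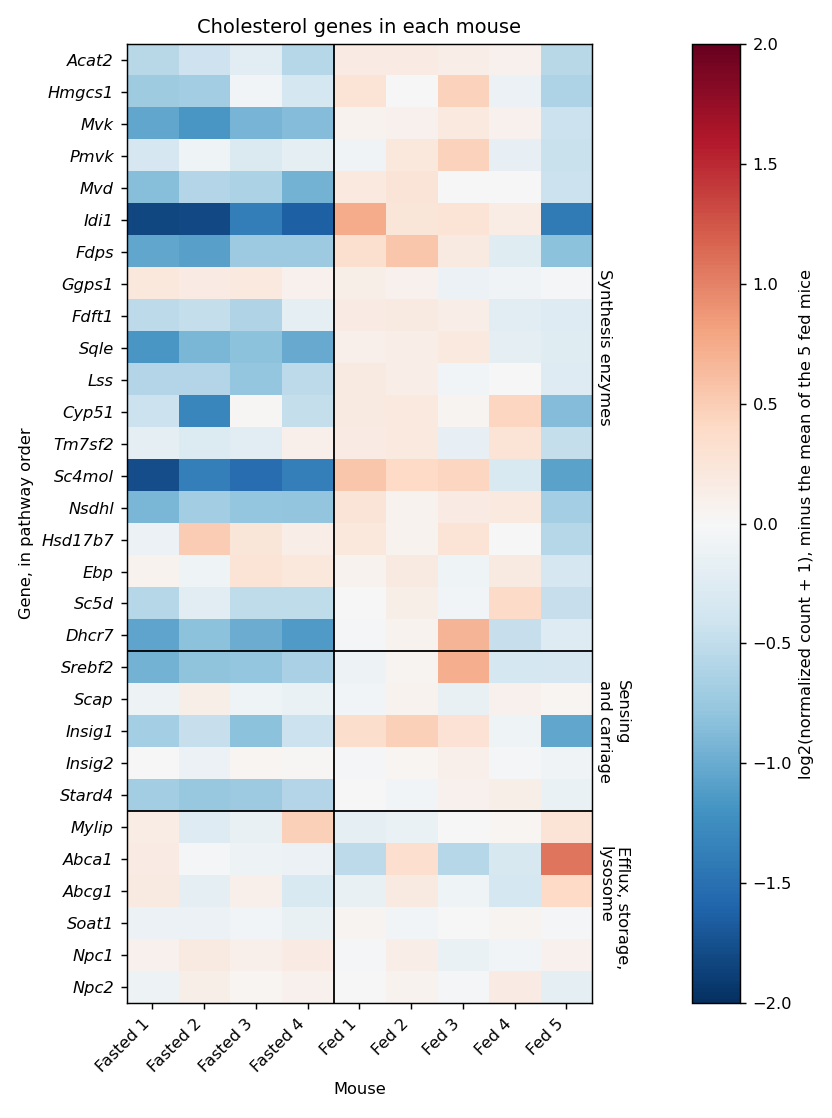
Level of each cholesterol gene (rows, in pathway order) in each mouse (columns), as log2(normalized count + 1) minus the mean of the 5 fed mice; blue is below that mean and red above it. The blue block at the left covers most synthesis rows in all 4 fasted mice, and the Fed 5 column is blue in most of the same rows and red for Abca1.

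Of the 8 enzymes placed before squalene, Ggps1 of a side branch included, 4 were called lower in fasted mice, beside 5.25% of all tested genes. They were Mvk, Mvd, Idi1 and Fdps. Mvk, mevalonate kinase (chr5:114444269-114460591, plus strand), had 175, 159, 188 and 197 normalized counts in the 4 fasted mice, against 379.6, 381, 410.4, 380.1 and 267 in the 5 fed mice. Every fasted mouse lay below every fed mouse, and Fed 5 was the lowest of the fed. Its log2 change was -1.002 (SE 0.13, limma adjusted p = 0.000914). Mvd, which decarboxylates mevalonate diphosphate (chr8:122433601-122443422, minus strand), had 633, 764, 741 and 596 normalized counts in fasted mice, against 1311, 1369.8, 1147, 1144 and 852 in fed mice. The groups again did not overlap, and the log2 change was -0.76 (SE 0.13, limma adjusted p = 0.00574). 

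Idi1, the isomerase that interconverts the basic isoprenoid units (chr13:8885501-8892451, plus strand), showed the largest log2 change of the 30 genes. It had 57.7, 57.8, 77.7 and 65.8 normalized counts in fasted mice, against 342, 244, 247, 229 and 76.6 in fed mice, a log2 change of -1.66 (SE 0.35, limma adjusted p = 0.0127). Fed 5 lay inside the fasted range, while the other fed mice were all at least 229. Without Fed 5 the log2 change was -2.01, and with only Fed 4 and Fed 5 it was -1.03 (limma adjusted p = 0.211). Fdps, which condenses isoprenoid units to farnesyl diphosphate (chr3:89093588-89101959, minus strand), had 67.9, 65.6, 84.4 and 84.5 normalized counts in fasted mice, against 176, 207, 159, 118 and 79.6 in fed mice. Fed 5 was again inside the fasted range, and the log2 change was -0.90 (SE 0.25, limma adjusted p = 0.0395). The Fdps call was lost without any of Fasted 1 to 4 or Fed 1 to 3 (limma adjusted p between 0.0662 and 0.10), and it held without Fed 4 or Fed 5. It was also lost in voom (adjusted p = 0.0579). Processed pseudogenes match Idi1 (Gm13502, 100% identity over 684 bases) and Fdps (Gm3571, 98.9% over 1062 bases), and Fdps shares 26.7% of its exon bases with Gm43738 on the same strand, so the single values of these 2 genes are uncertain.

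The remaining 4 early enzymes did not pass. Acat2, the cytosolic thiolase that joins acetyl-CoA units, averaged 1047 ± 120.1 in fasted mice and 1434 ± 265 in fed mice (log2 change -0.44, SE 0.14, limma adjusted p = 0.0779). The other fed mice had 1500.1 to 1586 normalized counts of Acat2, and Fed 5 had 963.8, inside the fasted range of 953 to 1211. Hmgcs1, which makes the precursor of mevalonate and carries the promoter match printed above, averaged 12249 ± 2718 in fasted mice and 16993 ± 4550.0 in fed mice (log2 change -0.45, SE 0.20, limma adjusted p = 0.183). Without Fed 5 both passed, Acat2 at -0.57 (limma adjusted p = 0.00197) and Hmgcs1 at -0.61 (0.0377), and Acat2 also passed in DESeq2 over all mice (adjusted p = 0.0190). Pmvk, the kinase that follows Mvk, had a log2 change of -0.23 (SE 0.16, limma adjusted p = 0.398). Ggps1, which makes the longer isoprenoid used to anchor proteins in membranes and leads away from sterols, had a log2 change of 0.17 (SE 0.07, limma adjusted p = 0.154), and the processed pseudogene Gm5630 matches it at 97.2% identity over 903 bases. Acat2 matches its neighbour Acat3 at 97.7% identity over 1477 bases, so reads of the pair may be mixed.

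From squalene onward 6 of 11 enzymes were called lower in fasted mice, beside 5.25% of all tested genes. Fdft1, squalene synthase (chr14:63145150-63179578, minus strand), had 398, 407, 375 and 498 normalized counts in fasted mice, against 642, 644, 622, 489.6 and 478 in fed mice. Fasted 4 lay above Fed 4 and Fed 5, and the log2 change was -0.45 (SE 0.12, limma adjusted p = 0.0375). The call was lost without Fasted 1, 2 or 3 or without Fed 1, 2 or 3 (limma adjusted p between 0.0655 and 0.103). Fdft1 shares 18.3% of its exon bases with Ctsb on the opposite strand, and whether the counting used strand is not given in the sources used here. The processed pseudogene Gm6781 matches Fdft1 at 97.4% identity over 1249 bases, so its single values are uncertain too. Sqle, squalene epoxidase, an oxygen-consuming step of the route (chr15:59315077-59331192, plus strand), had 1201, 1428, 1528 and 1346 normalized counts in fasted mice, against 2906, 2959, 3085, 2367 and 2267 in fed mice. The lowest fed mouse stood well above the highest fasted mouse, and the log2 change was -0.98 (SE 0.11, limma adjusted p = 0.000424). Lss, which folds the epoxide into lanosterol (chr10:76531588-76557138, plus strand), had 495, 492, 434 and 518 normalized counts in fasted mice, against 839.5, 811, 713, 744 and 622 in fed mice, without overlap. Its log2 change was -0.62 (SE 0.10, limma adjusted p = 0.00300).

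Past lanosterol, Sc4mol, Nsdhl and Dhcr7 were lower in fasted mice. Sc4mol (now Msmo1), the methylsterol oxidase (chr8:64718139-64733792, minus strand), had 336, 445, 399.9 and 445 normalized counts in fasted mice, against 1695, 1525, 1548, 932 and 549 in fed mice. All fasted mice lay below all fed mice, Fed 5 and Fed 4 were the lowest of the fed, and the log2 change was -1.51 (SE 0.29, limma adjusted p = 0.00833). Nsdhl, the dehydrogenase that acts next (chrX:72918557-72958514, plus strand), had 632, 730.1, 697 and 685 normalized counts in fasted mice, against 1414, 1239, 1329, 1366 and 739 in fed mice. Fed 5 lay just above the highest fasted mouse and the other fed mice lay far above it, with a log2 change of -0.79 (SE 0.17, limma adjusted p = 0.0130). Dhcr7, which makes cholesterol from its dehydro precursor (chr7:143823145-143848410, plus strand), had 218, 257, 227 and 205 normalized counts in fasted mice, against 444, 474, 729, 327 and 377 in fed mice. The groups did not overlap, Fed 3 was the highest of the fed, and the log2 change was -0.998 (SE 0.19, limma adjusted p = 0.00883). When the fed group was reduced to Fed 4 and Fed 5, Mvk, Sqle and Dhcr7 were the 3 synthesis enzymes still called; Mvd, Idi1, Fdps, Fdft1, Lss, Sc4mol and Nsdhl were not, all still lower in fasted mice.

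The other 5 sterol enzymes did not pass. Cyp51, the lanosterol demethylase, averaged 4974 ± 1723 in fasted mice and 7219 ± 2055 in fed mice, a log2 change of -0.55 (SE 0.28, limma adjusted p = 0.240). Its fasted mice ranged from 2798 to 7011, a wide spread, and Fed 5 had 3795 against 7215 to 9274 in the other fed mice. Sc5d, the desaturase of the last steps, averaged 928 ± 106 in fasted mice and 1286 ± 259 in fed mice, a log2 change of -0.45 (SE 0.14, limma adjusted p = 0.0662), and it passed without Fed 5 (-0.56, limma adjusted p = 0.00905) and in DESeq2 (adjusted p = 0.0151). Tm7sf2, a sterol reductase, had a log2 change of -0.14 (SE 0.15, limma adjusted p = 0.592), and it shares 12.1% of its exon bases with Vps51 on the same strand. Hsd17b7, the ketosteroid reductase that completes demethylation, had a log2 change of 0.19 (SE 0.17, limma adjusted p = 0.506), and Ebp, the isomerase that shifts a ring double bond, had a log2 change of 0.11 (SE 0.11, limma adjusted p = 0.558). Both had a positive estimate, and the 95% intervals were -0.18 to 0.56 and -0.13 to 0.36.

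**Figure D3:**
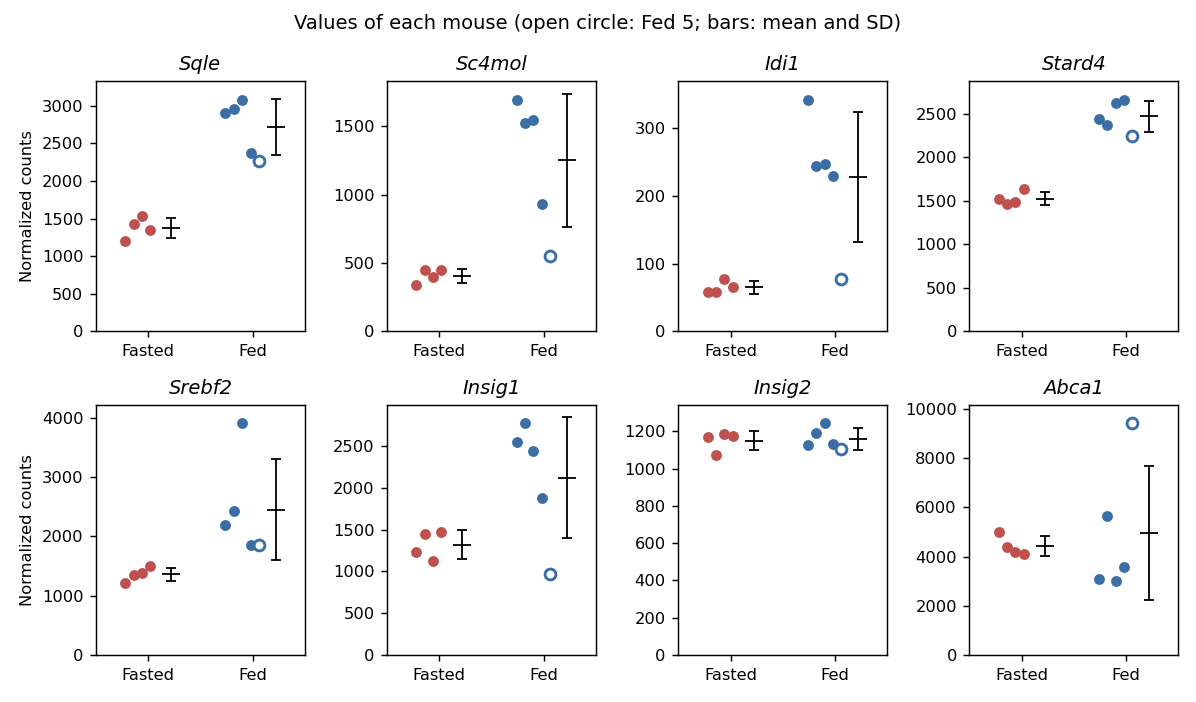
Normalized counts of 8 cholesterol genes in each mouse (points; 4 fasted mice at the left of each panel, 5 fed at the right), with the mean and SD beside them and Fed 5 as an open circle. Sqle and Stard4 separate the groups fully, Fed 5 sits near the fasted mice for Sc4mol, Idi1 and Insig1, Insig2 lies between 1072 and 1243 in all 9 mice, and Abca1 is highest in Fed 5.

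Levels per kilobase of merged exons (normalized counts per kb) were uneven along the pathway. Hmgcs1 was the highest at 2666 per kb in fasted mice and 3699 per kb in fed mice, followed by Cyp51 at 1127 and 1635 per kb. The lowest levels among the enzymes were those of Fdps, at 18.0 and 35.2 per kb, and Idi1, at 18.5 and 65.0 per kb in fasted and fed mice. Both have the near-identical copies given above, so their low counts and their place in this order are uncertain. Mvk, Fdft1, Lss, Tm7sf2, Sc4mol and Dhcr7 also lay below 100 per kb in fasted mice. Within a group, the coefficient of variation of the synthesis enzymes ran from 3.86% (Ggps1) to 34.6% (Cyp51) in fasted mice and from 6.92% (Ggps1) to 42.0% (Idi1) in fed mice.

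**Figure D4:**
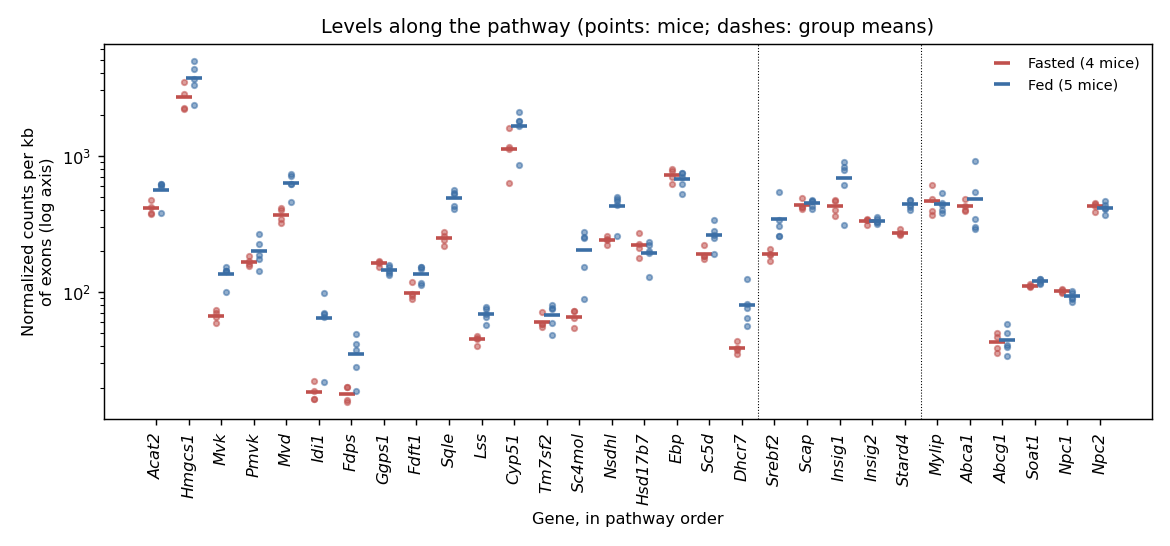
Level of each cholesterol gene in normalized counts per kilobase of merged exons (log axis), in pathway order, for the 4 fasted mice (left of each pair) and the 5 fed mice (right); points are mice and dashes are group means. Hmgcs1 and Cyp51 stand highest of the 30 genes, and Idi1 and Fdps, whose counts are uncertain because of near-identical copies, lowest of the synthesis enzymes.

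Among the genes that sense and carry sterols, the transcription factor and the carrier were lower in fasted mice, and Scap, Insig1 and Insig2 did not pass. Srebf2 (chr15:82147181-82205379, plus strand) had 1220.2, 1345, 1375 and 1498 normalized counts in fasted mice, against 2189, 2435, 3907, 1848 and 1857 in fed mice. The groups did not overlap, and Fed 3 lay far above the other fed mice. The log2 change was -0.79 (SE 0.19, limma adjusted p = 0.0224), and without Fasted 1 and Fed 3 it was -0.56 (limma adjusted p = 0.0184). The Srebf2 call was lost without Fasted 1, 2 or 3 (limma adjusted p between 0.0531 and 0.0649), which left 1 of the 5 sensing and carriage genes called. Over the whole table those fits called 1084, 1185 and 1062 genes, against 1656 in the main fit. Without Fed 5, singled out after its values were seen, 3 of the 5 were called lower, beside 6.84% of all genes tested in that fit. Stard4 had 1519, 1463, 1485 and 1632 normalized counts in fasted mice, against 2439.7, 2365, 2623, 2662 and 2249 in fed mice, with a log2 change of -0.69 (SE 0.07, limma adjusted p = 0.000208). It had the smallest adjusted p of the 30 genes, and it was called in every one of the 20 alternative fits. Scap, the escort and sterol sensor (chr9:110333288-110384950, plus strand), had 3109, 3612, 3131 and 3025 normalized counts in fasted mice, against 3191, 3481, 3014, 3546 and 3435 in fed mice. These ranges coincided (log2 change -0.05, SE 0.07, limma adjusted p = 0.700, 95% interval -0.21 to 0.11).

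The anchors of SCAP, Insig1 and Insig2, are paralogs that do the same task in the membrane. Insig1, itself known as an SREBP target (chr5:28071363-28078662, plus strand), had 1237, 1447, 1121 and 1474 normalized counts in fasted mice, against 2545, 2773, 2439, 1879 and 965 in fed mice. Fed 5 was below every fasted mouse, and the other fed mice were above all of them. The log2 change was -0.60 (SE 0.26, limma adjusted p = 0.168) over all mice, and -0.86 (limma adjusted p = 0.00241) without Fed 5. Insig2, which in mouse liver is known to have a transcript held down by insulin (chr1:121304353-121332589, minus strand), had 1168, 1072, 1185 and 1175 normalized counts in fasted mice, against 1124, 1193, 1243, 1132 and 1103 in fed mice. The groups overlapped throughout (log2 change -0.01, SE 0.06, limma adjusted p = 0.936, 95% interval -0.15 to 0.13). The ratio of Insig2 to Insig1 counts, which does not depend on library scaling, was 0.944, 0.741, 1.06 and 0.797 in fasted mice, against 0.442, 0.430, 0.510, 0.602 and 1.14 in fed mice. The mean log2 ratio was -0.19 ± 0.23 in fasted mice and -0.78 ± 0.58 in fed mice (SD), a difference of 0.59. Over the 126 arrangements of the 9 mice the two-sided exact permutation p was 0.0952, where the smallest possible is 0.0159. Without Fed 5, the mouse with the highest ratio, the groups did not overlap, the difference was 0.83 and the exact permutation p was 0.0286. That is the smallest p that 4 against 4 mice allow, and Fed 5 was singled out with its values in view, so it adds no support.

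No gene of efflux, storage or lysosomal export passed, either at a Benjamini-Hochberg adjusted p under 0.05 in limma, at an unadjusted p under 0.05, or in edgeR or DESeq2. Abca1, which loads cholesterol onto apolipoproteins (chr4:53030787-53159895, minus strand), had 4994, 4403, 4170.1 and 4097 normalized counts in fasted mice, against 3102, 5628, 3023, 3576 and 9419 in fed mice. The fasted mice lay within the fed range, and Fed 5 held the highest value. The log2 change was -0.02 (SE 0.29, limma adjusted p = 0.973), with a wide 95% interval of -0.65 to 0.61. Changes inside that interval remain compatible with these values. Without Fed 5 it was 0.25 (limma adjusted p = 0.390), of the other sign. Abcg1, which exports cholesterol to lipoprotein particles (chr17:31057675-31117988, plus strand), had 364, 284, 342 and 259.6 normalized counts in fasted mice, against 290.3, 364, 301, 250.2 and 424 in fed mice. The ranges overlapped (log2 change -0.05, SE 0.16, limma adjusted p = 0.878, 95% interval -0.39 to 0.30), and Fed 5 was again the highest of the 9 mice.

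Mylip, an LXR target encoding a ubiquitin ligase that removes lipoprotein receptors (chr13:45389742-45412022, plus strand), had 1567, 1180.0, 1267 and 1957 normalized counts in fasted mice, against 1235, 1284, 1417, 1453 and 1713 in fed mice. Fasted 4 was the highest and Fasted 2 the lowest of the 9 mice (log2 change 0.05, SE 0.14, limma adjusted p = 0.854, 95% interval -0.26 to 0.37). Soat1, which esterifies cholesterol for storage (chr1:156424525-156474331, minus strand), had 1077, 1082, 1128 and 1059 normalized counts in fasted mice, against 1212, 1126, 1175, 1217 and 1138 in fed mice. Only Fasted 3 lay above the lowest fed mouse, and the 95% interval of -0.23 to 0.01 was narrow (log2 change -0.11, SE 0.06, limma adjusted p = 0.235). Npc1, the membrane protein of lysosomal cholesterol export, had 1111, 1192, 1129 and 1182 normalized counts in fasted mice, against 1033, 1157, 963, 1009 and 1113 in fed mice. Npc2, its soluble partner in the lysosome (chr12:84754562-84773152, minus strand), had 2115, 2446, 2308 and 2391 normalized counts in fasted mice, against 2259.6, 2361, 2203, 2516 and 1980.3 in fed mice. Both overlapped, with log2 changes of 0.13 (SE 0.07, limma adjusted p = 0.250) for Npc1 and 0.03 (SE 0.08, limma adjusted p = 0.816) for Npc2.

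The gene groups were also averaged mouse by mouse. Relative to the fed mean, the mean log2 level of the 19 synthesis enzymes was -0.70, -0.63, -0.51 and -0.57 in Fasted 1 to 4, and 0.19, 0.18, 0.17, 0.00 and -0.54 in Fed 1 to 5. Fed 5, whose label is fed, lay inside the range of the fasted mice. For the 5 sensing and carriage genes the values were -0.48, -0.40, -0.48 and -0.36 in fasted mice, and 0.03, 0.12, 0.22, -0.05 and -0.31 in fed mice. For the 6 efflux genes they were 0.06, -0.05, -0.01 and 0.02 in fasted mice, and -0.14, 0.09, -0.13, -0.08 and 0.27 in fed mice, with Fed 5 the highest of all 9.

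**Figure D5:**
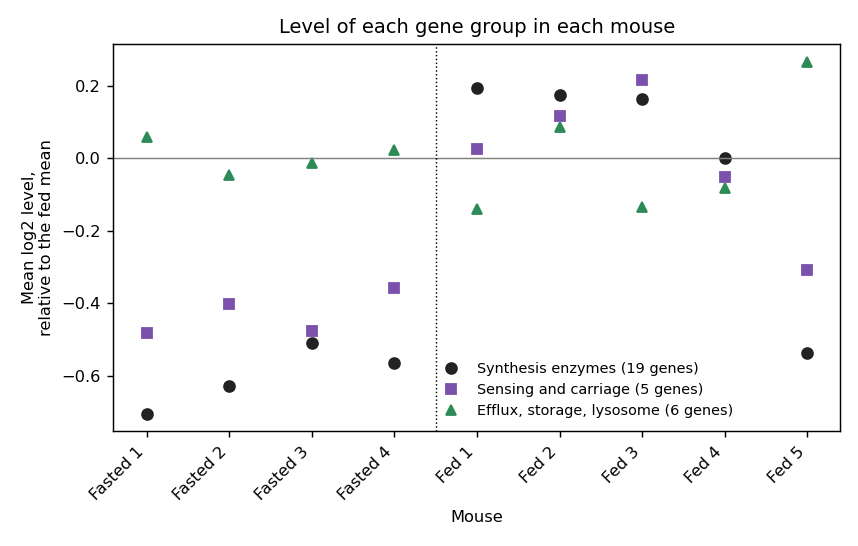
Mean log2 level of each group of cholesterol genes relative to the mean of the 5 fed mice (y axis), in each mouse (x axis), for the synthesis (circles), sensing and carriage (squares) and efflux, storage and lysosomal genes (triangles). The synthesis mean is between -0.70 and -0.51 in fasted mice and -0.54 in Fed 5, against 0.00 to 0.19 in the other fed mice.

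Fed 5 was the lowest fed mouse for 17 of the 19 synthesis enzymes, the exceptions being Ggps1 and Dhcr7, while it was the lowest for 22.6% of all tested genes. In 12 of the 19 it lay within or below the fasted range, and in 3 of the 6 efflux genes, none of them called. The share over all tested genes was not computed, so that count does not set the synthesis enzymes apart. The level of Fed 5 was also taken in percent of the mean of the other 4 fed mice. Its median over the synthesis enzymes was 66.5%, against 99.4% over all tested genes. That median was 90.8% over the 793 genes called lower in fasted mice and 103.6% over the 863 genes called higher. For Abca1 the level of Fed 5 was 246%, for Abcg1 141% and for Mylip 127%. Fed 5 was the highest fed mouse for these 3 of the 6 efflux genes, against 20.4% of all tested genes. No other fed mouse was the lowest for more than 1 of the 19 synthesis enzymes. Fed 5 was singled out after its values were seen.

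Genes around the pathway were taken as lists by function. Of 13 genes that process SREBP or turn over sterol enzymes, such as the Golgi proteases and the ubiquitin ligases of the endoplasmic reticulum, limma called none; at an unadjusted p under 0.05 there were 2 lower and 3 higher, edgeR called none, and DESeq2 called 2 lower and 1 higher. Of 10 LXR genes and usual targets 9 could be tested, and limma, edgeR and DESeq2 called none, with 1 higher at an unadjusted p under 0.05. Of 5 genes of acetyl-CoA and acetoacetyl-CoA metabolism (Acly, Acss2, Slc25a1, Aacs and Acat1), none was called by any of these tools, with 1, Aacs, lower at an unadjusted p under 0.05. The limma calls of these lists, like those of the 30 genes, stand beside limma's background of 11% called in either direction. That share does not apply to the other counts. DESeq2 called 2382 genes over the table, against 1656 for limma, and the share of all genes at an unadjusted p was not computed.

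The isoprenoid branches that lead away from sterols had 3 of 12 genes lower and 1 higher, beside 5.25% lower and 5.72% higher of all tested genes. Nus1 and Dhdds, the subunits of the enzyme that makes dolichol chains for protein glycosylation, were both lower. Nus1 averaged 6174 ± 454 in fasted mice and 9552 ± 806 in fed mice (log2 change -0.63, SE 0.08, limma adjusted p = 0.000793), and Dhdds averaged 931 ± 40.1 in fasted mice and 1281 ± 155 in fed mice (log2 change -0.45, SE 0.09, limma adjusted p = 0.00865). Pdss1, which makes the side chain of ubiquinone, averaged 294 ± 33.9 in fasted mice and 399 ± 36.8 in fed mice (log2 change -0.44, SE 0.10, limma adjusted p = 0.020). Rabggtb, a subunit of the enzyme that attaches geranylgeranyl groups to Rab proteins, was higher, at 1578 ± 70.8 in fasted mice and 1372 ± 34.6 in fed mice (log2 change 0.20, SE 0.06, limma adjusted p = 0.0419).

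Of 20 genes that bind or transfer sterols, 2 were lower and 1 was higher, beside 5.25% lower and 5.72% higher of all tested genes. So few calls are near that background and are not a result about the list. Osbpl3 and Osbpl6, of the oxysterol-binding protein family, averaged 5228 ± 182 in fasted mice and 6628 ± 393 in fed mice for Osbpl3 (log2 change -0.34, SE 0.06, limma adjusted p = 0.00651) and 4485 ± 154 in fasted mice and 5741 ± 781 in fed mice for Osbpl6 (log2 change -0.35, SE 0.09, limma adjusted p = 0.0359). Scarb2, a membrane protein of the lysosome, was higher, at 2298 ± 449.8 in fasted mice and 1353 ± 109.6 in fed mice (log2 change 0.75, SE 0.11, limma adjusted p = 0.00262). Of 9 oxysterol and bile acid enzymes, 1 was lower and 1 was higher, beside the same background and too few to set the list apart from it. Akr1d1, a steroid reductase, averaged 870.1 ± 145 in fasted mice and 1383 ± 196 in fed mice (log2 change -0.67, SE 0.13, limma adjusted p = 0.00892), and Cyp27a1, the mitochondrial sterol hydroxylase, averaged 2175 ± 206 in fasted mice and 1683 ± 159 in fed mice (log2 change 0.37, SE 0.09, limma adjusted p = 0.0219).

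In the authors' deposited table, 14 of the 30 cholesterol genes had an adjusted p under 0.05, all 12 of the genes called here among them. The share of all genes under that threshold in the authors' fit was not computed, so this count has no background beside it. The authors' deposited table adds Acat2 (adjusted p = 0.0196) and Sc5d (adjusted p = 0.0156), and its fold changes have the same sign as limma's for all 30. Of the annotation terms in the authors' deposited table, the keyword for cholesterol biosynthesis held 10 of their listed genes at 8.12-fold enrichment, and the pathway term for terpenoid backbone synthesis held 8 at 7.27-fold. Over all their sterol and isoprenoid terms, the authors' Benjamini-adjusted enrichment p ran from 3.23e-05 for that keyword to 0.611 for cholesterol homeostasis. The chart belongs to this same study and adds no separate support. Among the cholesterol genes with a promoter window, CCAAT was present in 8 of 8 called lower and in 13 of 16 not called, and GGGCGG in 8 of 8 and 14 of 16. The strict sterol response element was present in 0 of 8 called lower and in 1 of 16 not called. Sqle, Fdps, Fdft1 and Stard4, also called lower, had no window, and whether any motif goes with the calls was not tested.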

How the data were processed

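RNA of kidney cortex from 9 mice, 1 library each, went through the TruSeq kit, per the labels' protocols. FastQC, TopHat2 2.0.9, HTSeq 0.9.1 and DESeq2 3.5, with the builds mm10 and hg19, are named per the submitters' processing notes; the gene annotation and the use of strand are not given in the sources used here. The signal that the authors deposited for each mouse is a count of reads scaled by a size factor. All 161194 values above 0 proved to be whole reads after division by the column's step (tolerance 0.01 reads). The log2 fold changes, p-values and score (a test statistic, not used) of the deposited table are the authors', as are the fold (ratio), percent and p-value columns of their annotation chart.

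The main test was limma 3.58.1 (R 4.3.3), two-sided, with a trend, on log2(value + 1). It covered the 15098 genes averaging 10 normalized counts or more, with Benjamini-Hochberg adjustment over all of them. Groups came from the treatment label. Each mouse is 1 replicate, and counts of genes are descriptions with no list test. Recovered reads were tested with edgeR 4.0.16 and DESeq2 1.42.0, and with voom. Other alternatives were other filters, pseudocounts of 0.5 and 10, TMM, a threshold of 0.01, subsets of the fed mice, a fit without the 2 libraries highest in Rn45s, and each library left out. Libraries of the same group differed by more than counting error, with a chi-square over its degrees of freedom of 15.8 to 111 in 16 pairs. Steps were tested on simulated data.

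Positions and exon lengths are GENCODE M21's, on GRCm38 (mm10). Near-identical copies are alignments of at least 200 bases at 95% identity or more. Promoter windows are RefSeq's, on GRCm38.p6. All 30 genes were named, with values of every mouse for those called and for the sensing and efflux genes. From each list of neighbouring genes the called ones were named, at most 4. The members and lists were chosen with earlier results of these data known. No sample column was left unused.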

Additional observations from a re-analysis of the deposited data

Results flagged for a closer look

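In 68 sets of values of 1 gene or 1 gene group within a group of mice, the mouse farthest from its neighbours was compared with Dixon's 95% critical value, and 7 stood out; chance flags about 1 in 20 such sets. Fed 5 was the far mouse in 4 of the 7. It had 963.8 normalized counts of Acat2, the thiolase of the entry step, against 1500.1 to 1586 in the other fed mice. It had 267 of Mvk, against 379.6 to 410.4, and 739 of Nsdhl, against 1239 to 1414. Its mean log2 level of the 19 synthesis enzymes relative to the fed mean was -0.54, against 0.00 to 0.19. Srebf2 stood out in Fed 3, at 3907 normalized counts against 1848 to 2435 in the other fed mice, and Fed 3 is also the library with the highest share of Rn45s (5.53%), whose part was not tested. In the fasted group, Fasted 4 had 315 normalized counts of Tm7sf2, against 244 to 256 in the others, and Fasted 2 had 1072 of Insig2, against 1168 to 1185.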

How the results depend on the processing

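The 12 cholesterol genes called lower were lower in all 20 alternative fits, and Mvk, Sqle, Dhcr7 and Stard4 passed in each of them. Of 600 outcomes, 547 kept direction and side of the threshold, 28 lost the call, 10 gained it and 15, all of uncalled genes, changed sign. Genes called over the table numbered 1656, and 357 with Fed 4 and 5 as the only fed mice, 1068 without the libraries highest in Rn45s, 538 at a threshold of 0.01 and 861 to 1959 with 1 library left out (861, 1004, 1062 and 1084 on leaving out Fasted 4, Fed 1, Fasted 3 or Fasted 1). Synthesis enzymes called lower numbered 3, 6 and 6 in the first 3 of these and 8 to 13 with 1 library left out. Sensing genes called numbered 1 at 0.01 and 1 to 3 with 1 library left out. The Insig2 to Insig1 difference ran from 0.48 to 0.83 with 1 library left out. DESeq2 called 2382 genes, edgeR 1655 and voom 1670, and TMM moved the median of all genes to -0.00029. Estimates that changed sign were Pmvk (0.080), Insig2 (0.040) and Mylip (-0.11) with Fed 4 and 5 only, Insig2 without the libraries highest in Rn45s (0.0069) and Abca1 with Fed 1, 2 and 3 only (0.23). With 1 library left out, Insig2 ran from -0.028 to 0.022, Mylip from -0.087 to 0.16, Abca1 from -0.16 to 0.25, Abcg1 from -0.14 to 0.052 and Npc2 from -0.013 to 0.077. The causes were not tested. No paired analysis was possible because replicate numbers were given in record order and the labels pair no mice. With 4 and 5 mice, a gene not called may still have changed by any amount inside its printed interval.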
